A study of Schmidtea mediterranea with 5 samples.

Results

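Planarians that had lost their pigment in light and then spent 8 days back in the dark were compared with dark controls, to describe which transcripts were still below or above the control level and whether each difference was already there when the light ended. The animals were whole Schmidtea mediterranea of the clonal asexual strain CIW4, a brown freshwater flatworm, raised on beef liver and starved for 1 week before collection. The 8-day dark return group had 8 days of light and then 8 days in the dark. The dark control group, titled control WT (wild type) animals, was kept in the dark with no treatment. The other 3 groups, used here to date each difference, were animals taken when the 8 days of light ended and animals that followed this light with 1 or 2 days of darkness. The comparison uses 2 of the 5 libraries of the series. Each library is a single pool of 3 biological replicates mixed in equal amounts, so the spread between animals is not measured and no difference between conditions has a test. Of the 82843 transcripts in the deposited table, the 21307 with a mean of at least 1 CPM (reads per 1000000 library reads) over the 5 libraries were compared. The age of the animals and the day on which each pool was collected were not given in the sources used here.

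Planarian body pigment lies in cells beneath the dorsal epidermis and consists of ommochromes, made from tryptophan, and porphyrins, intermediates of haem synthesis. Porphyrins sensitise cells to light, and prolonged illumination is known to bleach the animals through loss of pigment cells. Back in the dark, pigmentation returns as stem cells, called neoblasts, give rise to new pigment cells. The deposited file gives transcript numbers without gene names, so transcripts are given here by number, no pathway or cell type is assigned to them, and the tissue label could not be set against marker genes.

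The 8-day dark return library held 48002809 reads and the dark control 44297819 reads, and the light, 1-day and 2-day libraries held 38447289, 42909193 and 50045371 reads. One read was therefore worth 0.0208 CPM in the 8-day library and 0.0226 CPM in the control. For 136 transcripts the control exceeded each of the other 4 libraries by 2-fold or more, and for 38 it lay under each of them by as much. Each difference described below is measured against this 1 control pool, so what belongs to that pool and what belongs to the light and dark treatment cannot be told apart.

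After 8 days in the dark, deficits of 2-fold or more outnumbered excesses of that size. On the scale of the ratio of (CPM + 1), 213 transcripts were lower by 2-fold or more in the 8-day dark return library than in the dark control, which is 1.00% of those compared, and 83 were at least 2-fold higher, which is 0.390%. The bulk of the transcripts lay close to the control and slightly above it: the median log2 ratio was 0.07, and the middle 50% of transcripts lay between -0.10 and 0.23. The 5th and 95th percentiles were -0.42 and 0.50. The balance depends on the line and on the scaling: at 1.5-fold there were 576 lower and 571 higher transcripts, which is nearly even. With the libraries rescaled by the trimmed mean of M values or by the median of ratios, settings added after the values were seen, the counts at 1.5-fold were 683 lower and 412 higher, and 646 lower and 453 higher. With 5 CPM added in place of 1 CPM, 105 were lower and 46 higher. Whole animals were sequenced, so fewer cells of a type and less RNA per cell cannot be told apart in any of these values.

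Most of the remaining deficits were moderate. Of the 213 lower transcripts, 188 (88.3%) were 2- to 4-fold lower, 18 were 4- to 8-fold lower and 7 were at least 8-fold lower. Of the 83 higher transcripts, 77 (92.8%) were 2- to 4-fold higher, 4 were 4- to 8-fold higher and 2 were at least 8-fold higher. Every one of the 296 transcripts rested on at least 83 reads in the 8-day and control libraries together. The 95% counting interval of the ratio of CPM lay wholly beyond 2-fold for 194 of the 213 and 65 of the 83. The transcripts were chosen on this same ratio, so the intervals describe the counting error of these 2 libraries and support neither the differences nor anything about the spread between animals. At the threshold itself, the last transcript counted as lower had 0.854 CPM after 8 days in the dark and 2.71 CPM in the control, and the first one left out had 0.792 and 2.57 CPM, so the lists end within a continuous range. On the higher side, the last counted had 2.04 CPM after 8 days in the dark and 0.519 CPM in the control, and the first left out had 6.44 and 2.73 CPM.

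Most of these differences were already 2-fold or more when the light ended. Each transcript was placed by its level in the 8-day light library against the same control: already present if it was at least 2-fold off in the same direction, partial if it was 1.2- to 2-fold off in that direction, and dark-only if it lay within 1.2-fold of the control or on its other side. Of the 213 lower transcripts, 167 (78.4%) were already present, 40 (18.8%) were partial and 6 (2.82%) were dark-only. Of the 83 higher transcripts, 49 (59.0%) were already present, 32 (38.6%) were partial and 2 (2.41%) were dark-only. For scale, 1.67% of all transcripts compared were 2-fold or more under the control in the light library and 0.643% were 2-fold or more over it. A further 17.5% of all transcripts were 1.2- to 2-fold under the control in light and 22.5% were 1.2- to 2-fold over it. The partial share of the lower transcripts cannot be set directly against that of all transcripts, because 78.4% of the lower ones were already in the 2-fold class. Of the lower transcripts outside that class, 40 were partial and 6 dark-only. Of the already present transcripts, 136 of the 167 lower and 38 of the 49 higher were at least 2-fold off in the same direction in every library but the control. For these, a trait of the control pool and an early effect of light cannot be told apart. The light and 8-day ratios share the control library, and the part that this shared library plays in the counts was not tested.

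**Figure D1:**
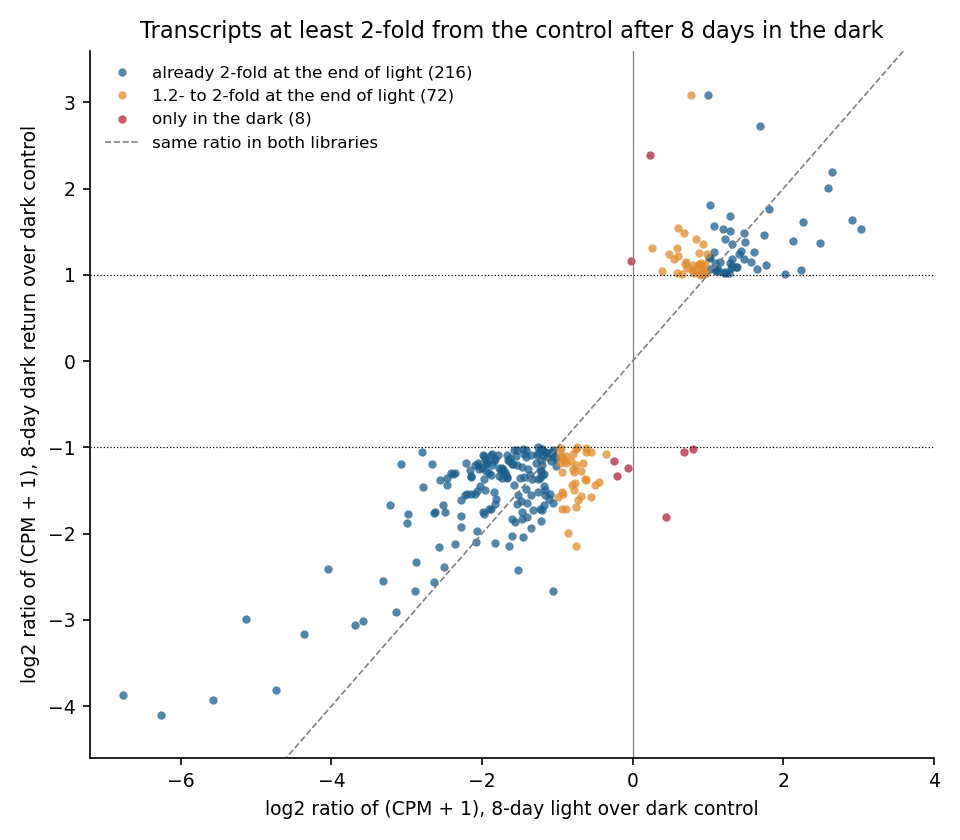
Each point is 1 of the 296 transcripts at least 2-fold from the dark control after 8 days in the dark; the y axis is the log2 ratio of (CPM + 1) of the 8-day dark return library to the dark control, the x axis is that of the 8-day light library to the same control, colours give the timing class, dotted lines mark 2-fold and the dashed line marks equal ratios. The 167 and 49 already present transcripts lie at the lower left and upper right. The 8 dark-only points lie within 1.2-fold of the vertical line at 0 or across it, and the nearest partial points lie just beyond that limit, with no gap between the classes.

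The already present deficits were slightly smaller after 8 days in the dark than at the end of light in the median transcript, but not in summed reads. Set against its own level in the control, the median transcript of the 167 stood at 22.8% in the light library, 32.3% after 1 day, 32.2% after 2 days and 30.6% after 8 days in the dark. The sum over the 167, which the most abundant of them dominate, was 15434 CPM in the control and 5429 CPM in light, then 5761, 5689 and 4956 CPM at 1, 2 and 8 days in the dark, so by this measure the deficit was largest at 8 days. Between the end of light and 1 day in the dark 74 of the 167 moved at least 1.2-fold towards the control, and 3 moved at least 1.2-fold away from it. Over all 21307 transcripts, 1971 moved up and 655 moved down by as much in the same step. Between 2 and 8 days the movement was divided, with 40 at least 1.2-fold nearer the control and 47 at least 1.2-fold farther from it. In that step 1858 of all 21307 transcripts moved up and 1085 moved down by as much. Over the whole dark period 123 of the 167 ended nearer the control than at the end of light and 44 ended farther away. By at least 1.2-fold, 90 of the 167 ended nearer and 23 farther, while 2990 of all 21307 transcripts moved up and 1463 moved down. The median transcript of the 167 had closed 19.5% of its log2 gap. These 167 were picked because they were still 2-fold low at 8 days, so transcripts that had closed the gap are not among them, and they were also picked for being low in light, so part of their later rise is set by that choice.

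The deepest deficits were all of this kind. The 7 transcripts at least 8-fold lower after 8 days in the dark were all already at least 2-fold lower in light, where their levels ran from 0.0334% to 7.32% of the control, with a median of 1.03%. After 8 days in the dark the same 7 stood at 4.50% to 11.6% of the control, with a median of 6.48%. All 7 were nearer the control after 8 days in the dark than at the end of light, 4 of them by at least 2-fold, so the lowest transcripts at 8 days had stood lower still in light. Among the 18 that were 4- to 8-fold lower, 10 were nearer the control after 8 days in the dark than in light, and their median was 12.3% of the control at 8 days in the dark and 10.7% at the end of light.

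SmedASXL_020150 was the lowest of all transcripts after 8 days in the dark by the ratio of (CPM + 1). Its level was 77.8 CPM in the control and 0.0260 CPM at the end of light, then 0.676, 0.0799 and 3.58 CPM at 1, 2 and 8 days in the dark. These levels rest on 3446 reads in the control, 1 read at the end of light, and 29, 4 and 172 reads at 1, 2 and 8 days in the dark. The transcript was thus close to the floor of 3 reads at the end of light and at 2 days, with an uneven course between, and among the libraries after light it was highest at 8 days. The ratio of CPM after 8 days in the dark to the control was 0.0461, or 21.7-fold lower (95% counting interval 18.6 to 25.5).

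**Figure D2:**
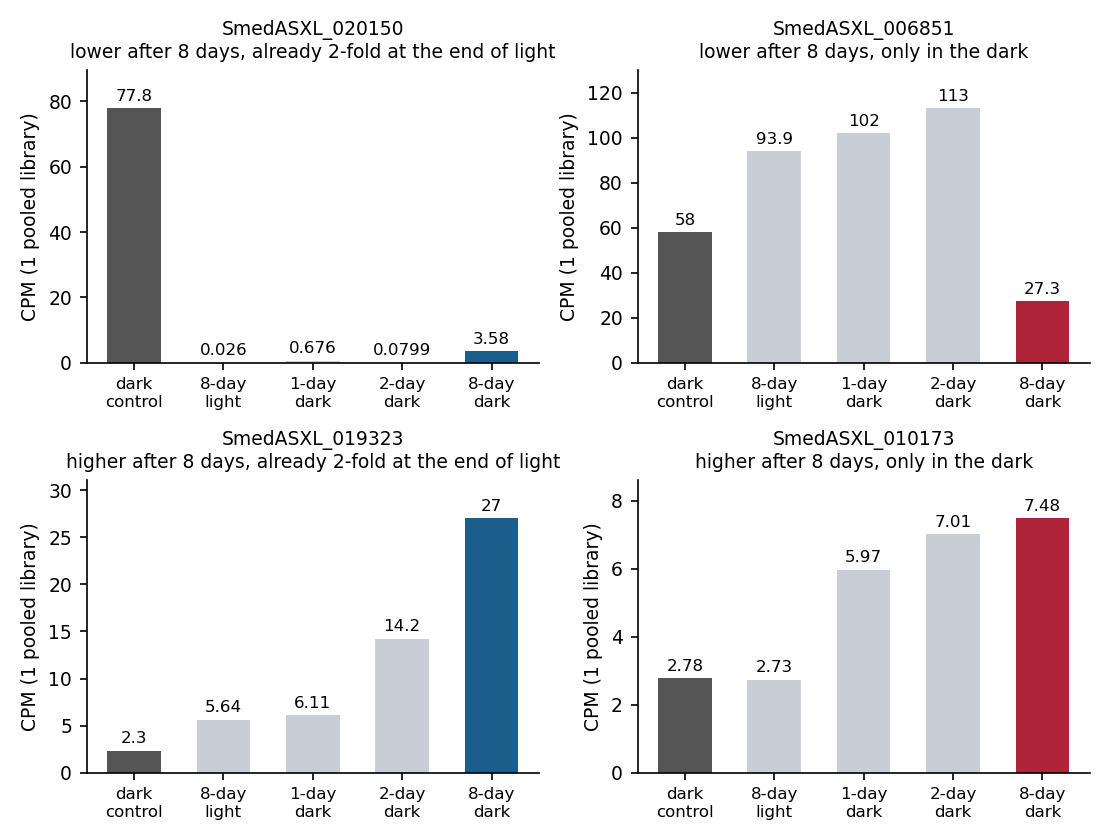
CPM in each of the 5 libraries, from the dark control through the light library to 1, 2 and 8 days in the dark, for the transcripts with the largest ratio of (CPM + 1) among those averaging at least 5 CPM, lower and higher, already present and dark-only, with 1 pooled library per bar and the value above it. SmedASXL_020150 stands at 3.58 CPM after 8 days in the dark against 77.8 CPM in the control, SmedASXL_019323 at 27.0 against 2.30 CPM, and SmedASXL_006851 is below the control only in the 8-day library.

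In a second, smaller group, chosen partly on the 8-day library, the median deficit was deeper at 8 days than before. The 40 partial transcripts had a median of 57.4% of the control at the end of light, 57.2% after 1 day and 51.5% after 2 days, and 37.3% after 8 days in the dark. Of the 40, 36 stayed within 1.2-fold between the end of light and 1 day, and 37 stayed within it between 1 and 2 days. Between 2 and 8 days 32 of them moved at least 1.2-fold farther below the control and 0 moved at least 1.2-fold towards it. The class was chosen for being 2-fold low at 8 days and not at the end of light. A lower level at 8 days than in light is thus fixed by the choice. The fall between 2 and 8 days is favoured by it, because the 8-day library chose the class. Of all 21307 transcripts, 18681 stayed within 1.2-fold between the end of light and 1 day, and 19844 between 1 and 2 days. The shares of the 40 that held through 1 and 2 days were near these, so nothing particular to the class is read from them. Over all 21307 transcripts, 1085 moved down by at least 1.2-fold between 2 and 8 days and 1858 moved up.

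The 6 lower dark-only transcripts were at or above the control in light or just under it, at 81.6% to 221% of the control level, and 3 of them were above it. After 8 days in the dark they stood at 12.1% to 47.1% of the control. All 6 moved down by at least 1.2-fold between 2 and 8 days, and in 0 of the 6 was the 1-day or 2-day library 2-fold below the control. Of all 21307 transcripts, 1085 moved down by as much between 2 and 8 days and 1858 moved up. The class was chosen for being 2-fold low at 8 days and not low in light. A fall from light to 8 days is thus fixed by the choice, and one between 2 and 8 days is favoured by it. Of the 6, only SmedASXL_006851 had a mean of at least 5 CPM. Its level was 58.0 CPM in the control and 93.9 CPM at the end of light, then 102, 113 and 27.3 CPM at 1, 2 and 8 days in the dark. It was above the control in the light, 1-day and 2-day libraries and below it only at 8 days. The ratio of CPM at 8 days to the control was 0.471 (95% counting interval 0.440 to 0.504) on 1312 and 2570 reads, while that of the light library to the control was 1.62 (1.54 to 1.70).

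**Figure D3:**
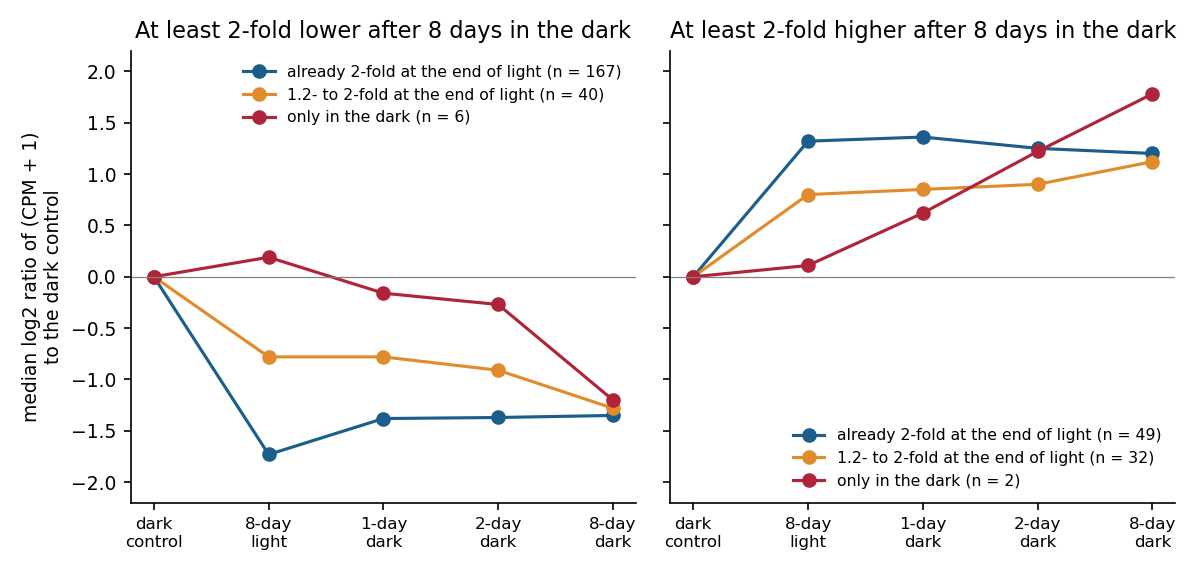
Median log2 ratio of (CPM + 1) to the dark control in each library, with the control at 0, for transcripts lower (left) and higher (right) by 2-fold or more after 8 days in the dark, by timing class; each point is a median over the transcripts of the class in 1 pooled library. The already present lower class lies at -1.73 in light and between -1.38 and -1.35 at all 3 times in the dark, while the partial lower class lies at -0.78 in light and after 1 day, -0.91 after 2 days and -1.28 at 8 days.

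The already present excesses stayed close to their light level in the median transcript, while single transcripts moved both ways. The 49 transcripts had a median of 281% of the control in the light library, 265% after 1 day, 259% after 2 days and 259% after 8 days in the dark. Between the end of light and 1 day 24 of the 49 stayed within 1.2-fold, 18 moved at least that far towards the control and 7 moved at least that far away from it. Of all 21307 transcripts, 18681 stayed within 1.2-fold in that step, 1971 moved up and 655 moved down. After 1 day 39 of the 49 were still 2-fold or more above the control, and the lowest stood at 81.3% of it. At 8 days 25 of the 49 were within 1.2-fold of their light level, 18 were at least 1.2-fold nearer the control and 6 were at least 1.2-fold farther from it. Of all 21307 transcripts, 16854 were within 1.2-fold of their light level at 8 days, a larger share than of the 49. The median transcript of the 49 had closed 12.0% of its log2 gap. These 49 were picked for being 2-fold high both in light and at 8 days, so transcripts that had fallen back are not among them. Part of their later fall is also set by that choice.

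SmedASXL_019323 had the largest ratio of this class, and its level was still higher at 8 days in the dark than at any earlier time. It was picked for its 8-day ratio, which favours a peak at 8 days. Only 10 of the 49 were highest at 8 days, and only 1 rose at each step from light. Its level was 2.30 CPM in the control and 5.64 CPM at the end of light, then 6.11, 14.2 and 27.0 CPM at 1, 2 and 8 days in the dark. Each library after light was higher than the one before it, and the 8-day library was 4.78-fold above the light library (95% counting interval 4.14 to 5.55). At 8 days in the dark it was 11.7-fold above the control (9.58 to 14.5), on 1296 and 102 reads. It only just met the 2-fold line in light, with a log2 ratio of 1.01.

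Part of the 32 partial excesses also stood higher at 8 days than at 2 days, a step that their choice favours. Their median was 186% of the control in light, 201% after 1 day, 199% after 2 days and 242% after 8 days in the dark. Between 2 and 8 days 14 of the 32 moved at least 1.2-fold farther above the control, 17 stayed within 1.2-fold and 1 moved at least 1.2-fold towards it. Of all 21307 transcripts, 1858 moved up by at least 1.2-fold in that step and 1085 moved down. The 32 were chosen for being 2-fold high at 8 days and not at the end of light. A higher level at 8 days than in light is thus fixed by the choice, and a rise between 2 and 8 days is favoured by it. One of them, SmedASXL_018215, singled out after its values were seen, carried more of the excess in reads than any other transcript: 3079 CPM in the control and 5541 CPM at the end of light, then 7012, 6859 and 8222 CPM at 1, 2 and 8 days in the dark. At 8 days it was 2.67-fold above the control (95% counting interval 2.65 to 2.69).

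Only 2 excesses were dark-only. SmedASXL_010173 had 2.78 CPM in the control and 2.73 CPM at the end of light, then 5.97, 7.01 and 7.48 CPM at 1, 2 and 8 days in the dark. The light library did not differ from the control by more than counting error (ratio 0.984, 95% counting interval 0.751 to 1.29), and most of the difference was in place after 1 day. At 8 days in the dark it was 2.69-fold above the control (2.19 to 3.33), on 359 and 123 reads. The other, SmedASXL_001353, has a mean of 2.22 CPM, under the minimum for named transcripts, and is named because the class holds only 2. It had 0.429 CPM in the control and 0.676 CPM at the end of light, then 0.839, 2.66 and 6.48 CPM at 1, 2 and 8 days in the dark. At 8 days in the dark it was 15.1-fold above the control, with a wide interval of 9.51 to 25.4 because the control held 19 reads. That both stood higher at 8 days than in light is fixed by the choice of the class. The rise of the first came mainly by 1 day and that of the second mainly after it.

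Summed over reads, the deficit was 13199 CPM and the excess 11697 CPM, and the excess was 6554 CPM without 1 transcript. The 213 lower transcripts together held 6502 CPM after 8 days in the dark and 19701 CPM in the dark control, or 0.650% and 1.97% of the reads. Between these stood 8031 CPM in light, 8339 CPM after 1 day and 8166 CPM after 2 days, so the summed level of the lower transcripts was lowest in the library that chose them. The 83 higher transcripts together held 19195 CPM after 8 days in the dark, 16860 CPM in light and 7498 CPM in the control. The difference was concentrated in few transcripts: the 10 with the largest difference made up 47.5% of the summed deficit and 78.9% of the summed excess. The transcript left out above, SmedASXL_018215, made up 44.0% of the excess, and without it the other 82 higher transcripts held 10973 CPM after 8 days in the dark, 11319 CPM in light and 4419 CPM in the control. With this transcript the summed level was higher after 8 days in the dark than in light, and without it slightly lower.

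**Figure D4:**
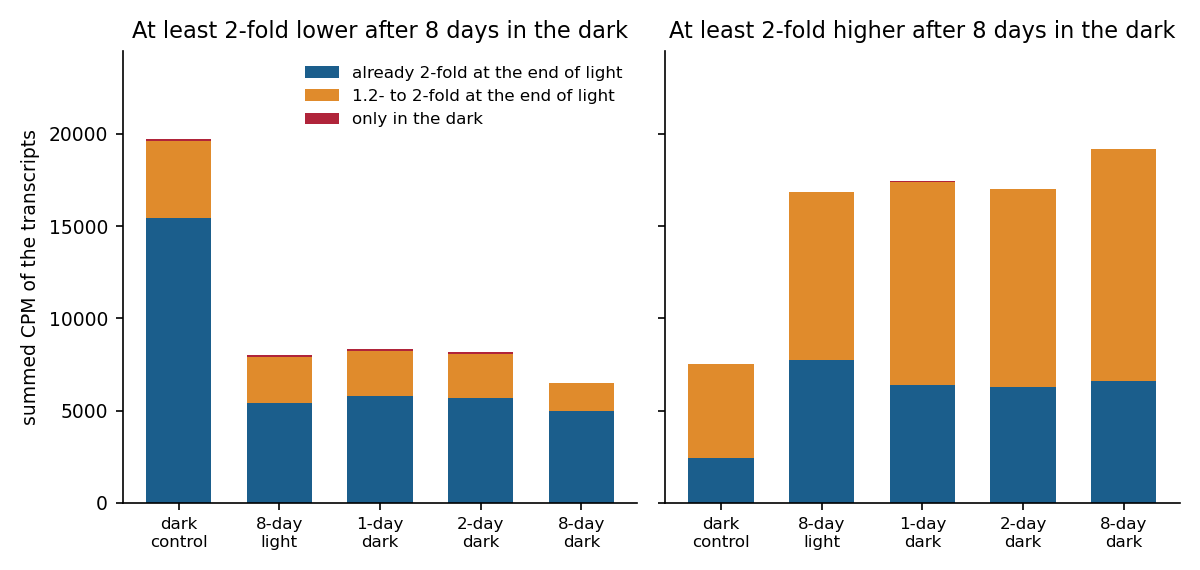
Summed CPM of the transcripts lower (left) and higher (right) by 2-fold or more after 8 days in the dark, in each of the 5 pooled libraries, stacked by timing class. The lower set holds 6502 CPM at 8 days in the dark against 19701 CPM in the control, and in the higher set the partial class, which contains SmedASXL_018215, makes up most of the 19195 CPM at 8 days.

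Deficits made up a similar share of transcripts over most of the abundance range, whereas excesses made up the smallest share among transcripts with the fewest reads. Among the 8429 transcripts with a mean of 1 to 5 CPM, 88 (1.04%) were lower and 10 (0.119%) were higher. Among the 1653 with a mean of at least 100 CPM, 26 (1.57%) were lower and 24 (1.45%) were higher. The 3 groups between these had 0.827% to 1.01% lower and 0.376% to 0.585% higher. The mean over the 5 libraries includes the 8-day library itself and those before it. A transcript low after light is thus moved to a lower group and one high after light to a higher group. What part this plays in the shares was not tested. The added 1 CPM pulls the ratio of low transcripts towards 1 on both sides, and with 0.1 CPM added instead the counts were 288 lower and 160 higher. In 2630 transcripts with reads in the control the 8-day library held none, and the highest of these had 0.655 CPM in the control. Of the transcripts over the minimum mean level, 0 were without a read after 8 days in the dark. A count of 0 allows up to 0.0625 CPM in that library.

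**Figure D5:**
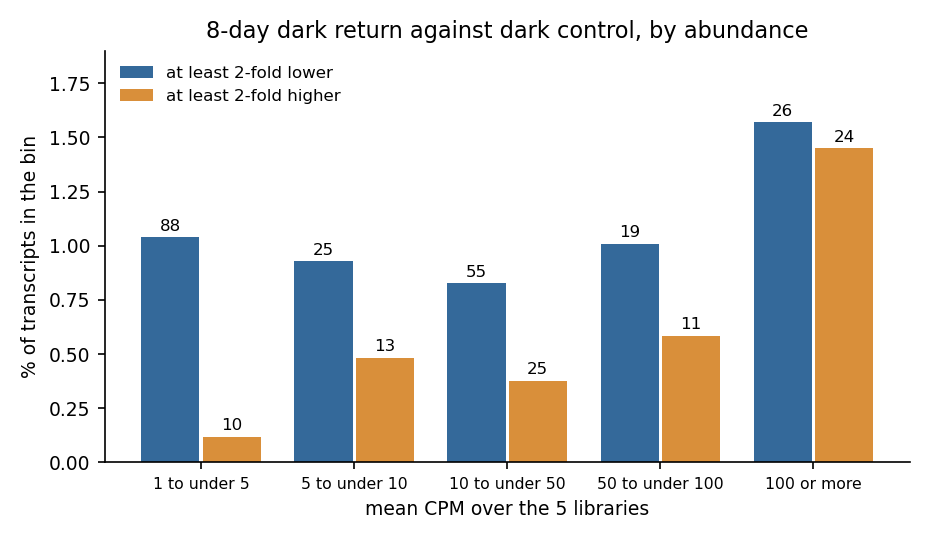
Share of transcripts lower and higher by 2-fold or more in the 8-day dark return library than in the dark control, in % of the transcripts in each bin of mean CPM over the 5 libraries, with the number of transcripts above each bar. The share of lower transcripts is 1.04% in the lowest bin and 1.57% in the highest, and that of higher transcripts is 0.119% and 1.45%.

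The same question can be put the other way, from what differed when the light ended. Of the 356 transcripts 2-fold or more under the control in light, 167 (46.9%) were still 2-fold lower after 8 days in the dark, 153 (43.0%) were 1.2- to 2-fold lower, 31 (8.71%) were within 1.2-fold of the control and 5 (1.40%) had passed it by more than 1.2-fold. Of the 137 that were 2-fold or more over it in light, 49 (35.8%) were still 2-fold higher, 67 (48.9%) were 1.2- to 2-fold higher, 13 (9.49%) were within 1.2-fold and 8 (5.84%) had passed to the lower side by more than 1.2-fold. Thus 36 of the 356 (10.1%) and 21 of the 137 (15.3%) stood within 1.2-fold of the control or beyond it. These sets were chosen on the light library, so their being nearer the control later is partly set by that choice, and how far was not tested.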

How the data were processed

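Poly(A)-selected RNA of whole animals was sequenced in single-end reads of 50 bases, per the labels. Per the design text, 15 bases were trimmed and reads were aligned to an assembled transcriptome; per the submitters' processing notes Bowtie2 2.2.4 and bcl2fastq 1.8.3 were used. The handling of reads that match more than 1 contig, and of strand, was not given in the sources used here. A transcript below means 1 contig, and contigs with common sequence may draw on common reads. The samples' treatment text belongs to another experiment, and groups were taken from the titles.

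The deposited values are CPM plus 1, per the file headers. After 1 was subtracted each column summed to 1000000 and held whole multiples of 1 read (100% of values within 0.001 reads), from which reads were computed. The deposited ratio column, control over light, was used for no result. Of the columns with per-sample values, 0 were left unused.

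Differences are log2 ratios of (CPM + 1), which understate the difference of low transcripts. The main comparison, the 1.2- and 2-fold limits and the naming rule (the largest ratio in each direction among already present and dark-only transcripts averaging 5 CPM or more) were written down with earlier results of these data known; 2 further transcripts were added after their values were seen. Gene lists were drawn up too but could not be applied without gene names. Intervals are exact conditional binomial 95% intervals (Clopper-Pearson, scipy 1.17.1) and cover counting error only; reads carry no molecular identifiers. The calculation was tested on simulated counts with 5-fold changes in transcripts averaging at least 5 CPM. Changes near 2-fold and the partial class were not simulated. Alternatives were other pseudocounts, filters, thresholds and class limits, and scaling by trimmed mean of M values (TMM) or median of ratios, computed on the reads.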

Additional observations from a re-analysis of the deposited data

Results flagged for a closer look

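SmedASXL_006851 changed sides between time points: its log2 ratio of (CPM + 1) to the dark control was -1.06 after 8 days in the dark and 0.69 at the end of light, with counting intervals of the ratio of CPM on opposite sides of 1. Each value rests on 1 pooled library, and the difference between the time points was not tested across animals.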

How the results depend on the processing

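The settings below were planned, apart from those at 1.5-fold under another scaling, which were chosen after seeing the data. The 213 lower and 83 higher transcripts became 105 and 46 with a pseudocount of 5 CPM, 288 and 160 with 0.1 CPM, 125 and 73 under a minimum mean of 5 CPM, and 100 and 60 under one of 10 CPM. At thresholds of 1.5-, 3- and 4-fold there were 576, 64 and 25 lower and 571, 11 and 6 higher, so the counts were nearly even at 1.5-fold. At 1.5-fold with TMM and with median-of-ratios scaling there were 683 and 646 lower and 412 and 453 higher, or 62.4% and 58.8% lower against 50.2% without rescaling. TMM and median-of-ratios scaling gave 231 and 225 lower and 68 and 72 higher, and shifted the median log2 ratio of all transcripts from 0.07 to 0.02 and 0.03.

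The share of lower transcripts already present at the end of light (78.4%) was 71.4% with a pseudocount of 5 CPM, 72.0% with means of at least 5 and 10 CPM, 60.9% and 72.0% at 3- and 4-fold, and 94.8% when already present began at 1.5-fold. The share of higher transcripts (59.0%) was 33.3% at 4-fold, which rests on 6 transcripts, and 92.8% when already present began at 1.5-fold. Where the threshold moved, the line for already present moved with it. The dark-only share of the lower (2.82%) was 0% with 5 CPM added and at 4-fold, 0.800% and 1.00% with means of at least 5 and 10 CPM, and 8.51% at 1.5-fold. That of the higher (2.41%) was 0% with a mean of at least 10 CPM, and 8.93%, 9.09% and 16.7% at 1.5-, 3- and 4-fold.

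The summed CPM at 8 days in the dark was 0.490 and 0.140 of the control for transcripts chosen at 1.5- and 4-fold lower, and 1.98 and 4.49 for those chosen higher. With 5 CPM added, the log2 ratios of SmedASXL_006851 and SmedASXL_010173 fell short of 2-fold, at -0.96 and 0.68. The settings run for the named transcripts could not reverse a direction. A changed pseudocount cannot move a ratio across 1, and scaling factors of 0.9757 to 1.0265 are too small to reverse a 2-fold ratio. Counts at low levels are limited by depth, 1 read being 0.0200 to 0.0260 CPM. No paired analysis was possible because each condition has 1 pooled library, and for the same reason no replicate could be left out and no count test was run.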
